A study of Rattus norvegicus with 12 samples.

Results

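The genes described here move lactate across the plasma membrane or set cellular pH, and were chosen by symbol. They are Slc16a1 and Slc16a3, Bsg, Ldhb, Slc4a2, Slc4a4 and Car2, which make up 7 of the 30562 Ensembl genes in the count table, each with a single row. They were followed in cultured rat oligodendrocyte precursor cells (OPCs), glial progenitors that can become myelinating oligodendrocytes. Wild-type OPCs were isolated from the cortex of Sprague-Dawley rats at postnatal day 1 or 2 and grown with FGF-2 and PDGF-AA. One group of 6 libraries came from OPCs held at an FiO2 (fraction of inspired oxygen) of 5%, the mild-hypo-OPCs, and the other 6 libraries from standard OPCs in room air. The labels give 6 hours for the low-oxygen exposure, whereas the methods of the study describe days. The comparison asks whether mild hypoxic preconditioning changes the transcripts of OPCs. The labels do not tie libraries to separate cultures, and the study's legend counts fewer biological replicates than the libraries deposited, so p-values measure the spread between libraries, which may be partly technical.

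Cells that rely on glycolysis export lactate together with a proton through monocarboxylate transporters. MCT1, the product of Slc16a1, works in either direction and is the transporter through which oligodendrocytes are thought to supply lactate to axons, while MCT4, the product of Slc16a3, is the exporter classically induced by the hypoxia-inducible factor HIF-1. Both need basigin, the product of Bsg, to reach the membrane. The LDHB subunit of lactate dehydrogenase favours the conversion of lactate to pyruvate. Carbonic anhydrase 2 (Car2) interconverts carbon dioxide and bicarbonate and is a classical oligodendrocyte enzyme, and the bicarbonate is carried by the chloride-bicarbonate exchanger AE2 (Slc4a2), an acid loader, and the sodium-bicarbonate cotransporter NBCe1 (Slc4a4), which is prominent in astrocytes.

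The depth of the libraries differed with the condition. The total count of a library was 4111669 to 9022324 for mild-hypo-OPCs, against 1356079 to 2797513 for standard OPCs, so effects of depth and of oxygen cannot be told apart. TMM factors, which scale for composition, were 1.08 to 1.23 and 0.809 to 0.945, respectively. OPC markers were present in every library (7 of 8 listed markers in the table, summed level 3726 to 4326 CPM, counts-per-million units, in mild-hypo-OPCs and 3083 to 3827 CPM in standard OPCs). Other cell types were represented by the summed levels of lists for maturing oligodendrocytes (7 markers, 12410 to 13890 against 8535 to 12310 CPM), neurons (5 markers, 127 to 146 against 71.3 to 111 CPM), astrocytes (8 markers, 833 to 965 against 772 to 862 CPM) and microglia (9 markers, 60.4 to 82.2 against 30.4 to 61.8 CPM). The oligodendrocyte and neuron ranges were separate and the other two overlapped, but a sum is carried by its most abundant markers. At an adjusted p below 0.05, edgeR called 7.0% of all genes tested higher and 17.0% lower. Of the 7 OPC markers tested 1 was called higher, Gpr17 (log2 fold change 0.45), and 0 lower. Of the 7 oligodendrocyte markers tested 4 were called higher and 0 lower. Of the 3 neuron markers tested 1 was called higher, Tubb3, which made up most of that sum (98.9 against 59.4 CPM). The astrocyte list had 2 higher and 0 lower calls among 7 tested, and the microglia list had 3 higher and 1 lower (Tyrobp, log2 fold change -0.69) among 5 tested. Their part in the results was not tested. The endothelial list (5 of 6 markers in the table, Cdh5 and Tek at 0), the mesenchymal list (4 markers, Lum at 0), the choroid plexus and ependymal list (3 of 4 markers) and the erythroid list (4 of 5 markers, Hbb and Slc4a1 at 0) each summed to at most 2.13 CPM. In bulk RNA, fewer cells of a type and less RNA per cell cannot be told apart.

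Mild-hypo-OPCs had less Bsg and more Slc4a2 than standard OPCs, while Slc16a1 and Ldhb did not pass the test and Slc16a3 was almost without reads. Of the 7 genes, 4 passed the expression filter (a CPM above 10 in at least 1 library) and were tested with edgeR's quasi-likelihood test among 8938 genes, with Benjamini-Hochberg adjustment over all of them. At an adjusted p-value below 0.05, 1 member (Slc4a2) was called higher, where the share over all genes tested was 7.0%, and 1 member (Bsg) was called lower, where it was 17.0%. Fold changes have standard OPCs as the denominator, SE stands for their standard error on the log2 scale, and means are given ± SD over n = 6 libraries per group. The median log2 fold change was 0.07 over the 4 members and 0.00 (-0.0031) over all genes tested. In none of the 7 genes did the 6 libraries of one condition lie entirely above or below the other 6, which happened upward in 2.94% and downward in 5.40% of all genes tested. CPM values below are TMM-scaled and not divided by transcript length, so levels are compared between conditions and not between genes.

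**Figure D1:**
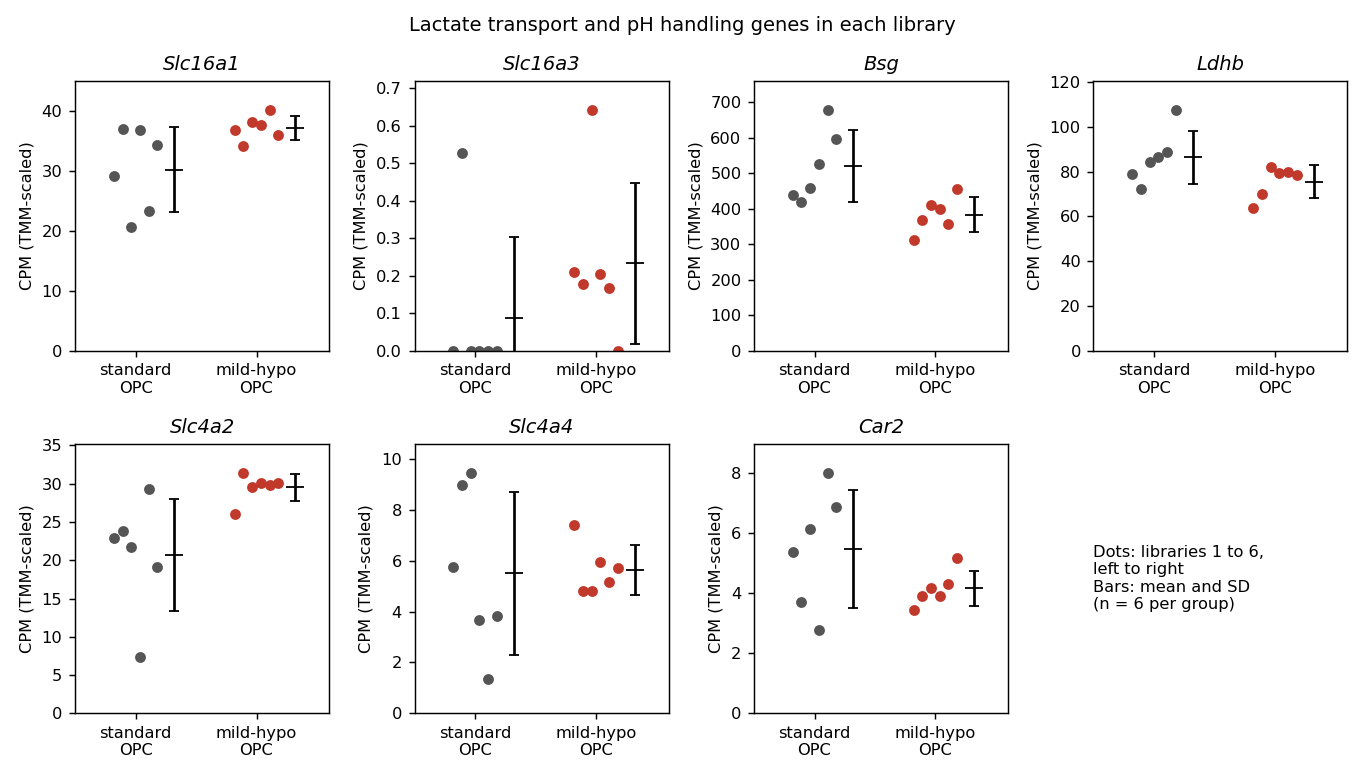
CPM (TMM-scaled, linear axes starting at 0) of each of the 7 genes in the 6 standard OPC and 6 mild-hypo-OPC libraries, with libraries 1 to 6 from left to right and bars for the mean and SD. Bsg lay between 311 and 457 CPM in mild-hypo-OPCs and between 418 and 678 CPM in standard OPCs, Slc4a2 was spread from 7.36 to 29.3 CPM in standard OPCs, and Slc16a3 stayed below 1 CPM in every library.

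The start-site windows of 3 members are printed first, those of Bsg and Slc4a2 because they passed the test, and that of Slc16a3 because it is the textbook HIF-1 target of the set. Each is 300 bases of RefSeq sequence on the GRCr8 build, from 250 bases before the annotated start to 50 after it, given 5′ to 3′ on the strand of the gene. These are chr7:10650956-10651255 on the minus strand for Bsg, chr4:11645353-11645652 on the minus strand for Slc4a2 and chr10:106712078-106712377 on the plus strand for Slc16a3. Capitals mark the core of the hypoxia response element, ACGTG or GCGTG, or their reverse complements CACGT and CACGC, with overlapping matches counted as 1 place.
Bsg: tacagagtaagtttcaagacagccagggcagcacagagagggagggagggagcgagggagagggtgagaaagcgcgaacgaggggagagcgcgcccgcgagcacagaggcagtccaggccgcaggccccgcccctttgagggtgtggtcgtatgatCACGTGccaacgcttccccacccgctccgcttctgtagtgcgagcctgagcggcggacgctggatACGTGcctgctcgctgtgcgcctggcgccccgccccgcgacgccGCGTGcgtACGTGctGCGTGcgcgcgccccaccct
Slc4a2: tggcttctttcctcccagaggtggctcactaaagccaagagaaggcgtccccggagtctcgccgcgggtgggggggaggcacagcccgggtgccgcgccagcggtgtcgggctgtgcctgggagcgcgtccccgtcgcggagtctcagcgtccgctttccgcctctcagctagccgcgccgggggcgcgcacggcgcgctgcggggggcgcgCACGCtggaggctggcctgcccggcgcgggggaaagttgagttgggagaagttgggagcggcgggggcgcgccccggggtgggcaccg
Slc16a3: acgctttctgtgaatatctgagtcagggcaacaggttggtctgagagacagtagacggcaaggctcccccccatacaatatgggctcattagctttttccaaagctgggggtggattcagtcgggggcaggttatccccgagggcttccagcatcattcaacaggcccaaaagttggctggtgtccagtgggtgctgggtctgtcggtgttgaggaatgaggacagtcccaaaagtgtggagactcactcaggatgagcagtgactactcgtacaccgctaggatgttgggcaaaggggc

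The Bsg window held the core at 5 places, the Slc4a2 window at 1 place and the Slc16a3 window at 0. The Slc16a1, Slc4a4 and Ldhb windows held it at 3, 2 and 1 places, and Car2 had no entry. At least 1 place was found in 41.6% of all 33469 windows in the table and 5 or more in 0.675%. A letter match is not a binding site, other transcript starts were not searched, and a relation between places and fold changes was not tested.

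Slc16a1 (ENSRNOG00000019996) had 36.8, 34.1, 38.2, 37.7, 40.2 and 36.0 CPM in mild-hypo-OPC libraries 1 to 6. Standard OPC libraries 1 to 6 had 29.1, 37.0, 20.6, 36.8, 23.3 and 34.3 CPM. The mild-hypo-OPC values were close together, and all 6 exceeded the standard OPC median of 31.7 CPM, but standard OPC libraries 2, 4 and 6 reached into their range. Means were 37.2 ± 2.06 against 30.2 ± 7.04 CPM, and the log2 fold change was 0.32 (SE 0.12, 95% confidence interval 0.06 to 0.57, edgeR adjusted p = 0.0662). The unadjusted p was 0.0181 from the same edgeR fit, and a difference as large as 1.49-fold lay within the interval. The gene was called with DESeq2 (0.33, adjusted p = 0.0343), with upper-quartile scaling (0.38, edgeR adjusted p = 0.0263) and, in edgeR, without standard OPC replicate 2 (0.40, adjusted p = 0.0274) or 4 (0.37, adjusted p = 0.0494). The call was absent in limma-voom (0.34, adjusted p = 0.0544), at equal depth after thinning (0.32, edgeR adjusted p = 0.130) or in the other 10 fits that left out 1 library, with the smallest value without standard OPC replicate 3 (0.22, edgeR adjusted p = 0.173). With library size only, a scaling that moved the median of all genes to 0.43 and called 5515 of the 8938 genes higher, its log2 fold change was 0.75 (edgeR adjusted p = 5.51e-05).

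Slc16a3 (ENSRNOG00000036677) had 2, 1, 4, 1, 1 and 0 counts in mild-hypo-OPC libraries 1 to 6 and 1 count in standard OPC replicate 2, with 0 in the other standard OPC libraries. The transcript of the hypoxia-inducible lactate exporter was thus at or under the floor of 3 counts in 11 of 12 libraries. Summed over libraries this gave 0.238 CPM in mild-hypo-OPCs (9 counts) and 0.0980 CPM in standard OPCs (1 count), a ratio of 2.43 with an exact 95% interval from 0.337 to 107 that covers counting error only. A change in Slc16a3 was therefore not detectable at this depth. The within-library log2 ratio of Slc16a1 to Slc16a3 counts (0.5 added to each) was 7.13 ± 0.92 in mild-hypo-OPCs and 6.34 ± 0.55 in standard OPCs. Slc16a3 was at 0 in 5 of 6 standard OPC libraries, where this ratio is the Slc16a1 count over the constant added and so grows with depth. The difference of 0.79 (p = 0.0974 in a two-sided exact permutation test, 0.146 adjusted over 3 ratios) is therefore given without a reading.

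Bsg (ENSRNOG00000008414) had 311, 369, 410, 399, 357 and 457 CPM in mild-hypo-OPC libraries 1 to 6. The standard OPC libraries had 439, 418, 458, 526, 678 and 597 CPM. Every mild-hypo-OPC value lay below the standard OPC median of 492 CPM, and the groups overlapped through mild-hypo-OPC replicate 6 and standard OPC replicates 1 and 2. The means were 384 ± 50 against 520 ± 102 CPM, and basigin transcripts fell by 0.43 on the log2 scale (SE 0.12, 95% confidence interval -0.68 to -0.19, edgeR adjusted p = 0.0107). The call held in all 12 fits that left out 1 library (-0.49 to -0.34), as well as in DESeq2 (-0.42, adjusted p = 0.00778) and limma-voom (-0.42, adjusted p = 0.0111). It was absent with library size only (0.01, edgeR adjusted p = 0.974) and turned with the log2 total count of a library as covariate (0.21, edgeR adjusted p = 0.882), a fit that called 0 of the 8938 genes higher and 43 lower. The totals of the conditions did not overlap, so this covariate largely stands in for the condition and its fits are hard to read. At equal depth after thinning Bsg was called (-0.45, edgeR adjusted p = 0.0130). In replicates 1 to 3, where 53 genes were called higher and 343 lower, the log2 fold change was -0.25 (edgeR adjusted p = 0.256), and in replicates 4 to 6 it was -0.57 (edgeR adjusted p = 0.00105), and it was -0.26 (limma adjusted p = 0.0273) with the trend on gene span removed.

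The transporter and its chaperone had fold changes of opposite sign, of which that of Bsg alone passed the test, and their ratio within a library is free of the scaling factor. The log2 ratio of Slc16a1 to Bsg counts was -3.08, -3.43, -3.42, -3.40, -3.15 and -3.66 in mild-hypo-OPC libraries 1 to 6. In the standard OPC libraries it was -3.91, -3.49, -4.46, -3.82, -4.84 and -4.10. All 6 mild-hypo-OPC values exceeded the standard OPC median of -4.01, and the ranges overlapped only through mild-hypo-OPC replicate 6 and standard OPC replicate 2. The means differed by 0.75, which is given without a test because this ratio was chosen after the values were seen. The other chaperones of this family, Nptn (neuroplastin) and Emb (embigin), were both tested, and 0 of 2 were called by edgeR (0 at an unadjusted p below 0.05, 0 by limma-voom and 0 by DESeq2). Their log2 fold changes were 0.06 and -0.16.

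Ldhb (ENSRNOG00000013000) had 63.7, 69.8, 82.0, 79.5, 79.8 and 78.7 CPM in mild-hypo-OPC libraries 1 to 6 and 78.8, 72.4, 84.5, 86.5, 88.6 and 108 CPM in standard OPC libraries 1 to 6. The mild-hypo-OPC values all lay below the standard OPC median of 85.5 CPM, with wide overlap. The means were 75.6 ± 7.19 against 86.4 ± 11.96 CPM, with a log2 fold change of -0.18 (SE 0.10, 95% confidence interval -0.39 to 0.02, edgeR adjusted p = 0.177). The direction turned with library size only (0.26, edgeR adjusted p = 0.0501) and with the log2 total as covariate (0.25, edgeR adjusted p = 0.822).

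Ldha, the partner subunit that favours lactate formation, averaged 191 ± 19.8 CPM, against 187 ± 19.9 CPM in standard OPCs, with a log2 fold change of 0.04 (SE 0.09, edgeR adjusted p = 0.799). The log2 ratio of Ldhb to Ldha counts within a library was -1.37, -1.44, -1.41, -1.36, -1.11 and -1.32 in mild-hypo-OPC libraries 1 to 6 and -1.08, -1.26, -0.98, -1.21, -1.23 and -0.92 in standard OPC libraries 1 to 6. Mild-hypo-OPC replicate 5 was the single mild-hypo-OPC library above the lowest standard OPC value. The mean ratio was lower by 0.22 in mild-hypo-OPCs (p = 0.0195 in a two-sided exact permutation test, 0.0584 adjusted over 3 ratios), which did not pass the adjusted threshold. It passed with 2 added to each count (-0.23, exact permutation test, adjusted p = 0.0195). A larger constant raises this ratio more in the shallower standard OPC libraries, so that pass depends partly on depth. The difference also passed without mild-hypo-OPC replicate 5 (-0.27, adjusted p = 0.0130, exact permutation test), standard OPC replicate 2 (-0.25, adjusted p = 0.0390, exact permutation test) or standard OPC replicate 5 (-0.25, adjusted p = 0.0227, exact permutation test). At equal depth after thinning the difference was -0.17 (p = 0.0866, adjusted p = 0.255, exact permutation test). It was -0.30 in replicates 1 to 3 and -0.14 in replicates 4 to 6 (p = 0.1 and 0.4 in exact permutation tests, where 0.1 is the smallest p possible).

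**Figure D2:**
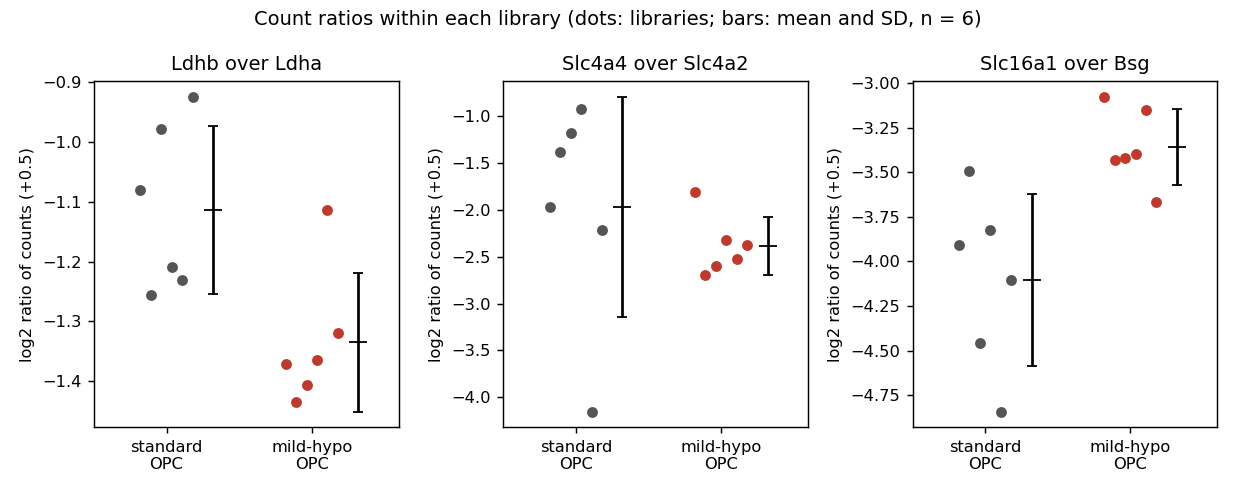
Log2 ratio of the counts of 2 genes within each library (0.5 added to each count), for Ldhb over Ldha, Slc4a4 over Slc4a2 and Slc16a1 over Bsg, with dots for libraries 1 to 6 from left to right and bars for the mean and SD. The Ldhb to Ldha ratio was lower by 0.22 in mild-hypo-OPCs, the Slc4a4 to Slc4a2 ratio ran from -4.15 to -0.92 in standard OPCs, and the Slc16a1 to Bsg ratio was higher by 0.75 in mild-hypo-OPCs.

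Slc4a2 (ENSRNOG00000014347) had 26.1, 31.4, 29.5, 30.1, 29.9 and 30.1 CPM in mild-hypo-OPC libraries 1 to 6. In standard OPC libraries 1 to 6 it had 22.9, 23.8, 21.7, 7.36, 29.3 and 19.1 CPM. The mild-hypo-OPC values were nearly level, and standard OPC replicate 5 was the library that reached into their range. Standard OPC replicate 4, the library with the smallest total, was far below the others with 8 counts. The AE2 transcript rose from 20.7 ± 7.35 to 29.5 ± 1.80 CPM, a log2 fold change of 0.46 (SE 0.16, 95% confidence interval 0.13 to 0.78, edgeR adjusted p = 0.0376). It was also called by DESeq2 (0.47, adjusted p = 0.00868) and by limma-voom (0.49, adjusted p = 0.0477), and without standard OPC replicate 4 its log2 fold change was 0.33 and it was still called by edgeR. At equal depth after thinning, in a single random draw, it was called close to the threshold (0.56, edgeR adjusted p = 0.0479). The call was lost without mild-hypo-OPC replicate 2 or 5 (edgeR adjusted p = 0.0560 and 0.0502) or standard OPC replicate 3 or 6 (edgeR adjusted p = 0.0644 and 0.0741). Neither did it pass in replicates 1 to 3 (0.36, edgeR adjusted p = 0.203), in replicates 4 to 6 (0.63, edgeR adjusted p = 0.0630) or with the log2 total as covariate (0.47, edgeR adjusted p = 0.772), with the direction unchanged in each. With library size only, which moved all genes, it was 0.89 (edgeR adjusted p = 0.000121).

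**Figure D3:**
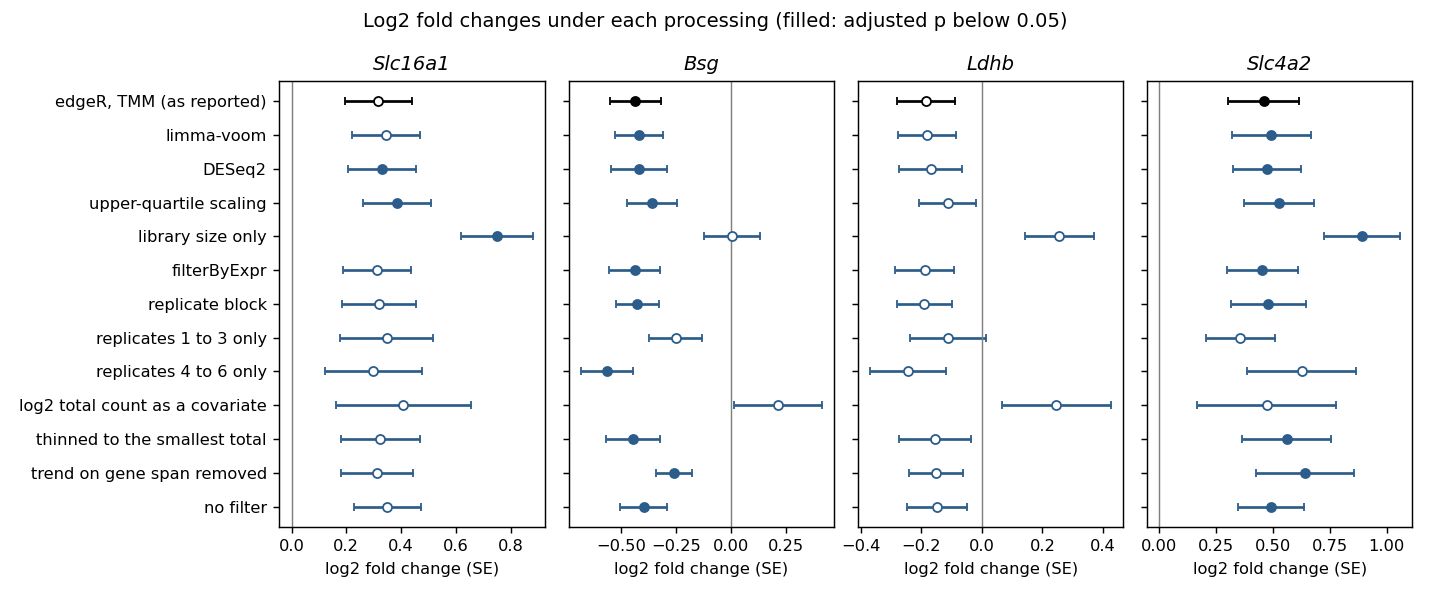
Log2 fold change (points) and SE (bars) of Slc16a1, Bsg, Ldhb and Slc4a2 under each processing, with filled points for an adjusted p below 0.05. Slc16a1 and Slc4a2 stayed above 0 in every row, whereas Bsg and Ldhb moved to 0.01 and 0.26 with library size only and to 0.21 and 0.25 with the log2 total count of a library as covariate.

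Slc4a4 (ENSRNOG00000003134) and Car2 (ENSRNOG00000009629) fell below the expression filter and were compared in an edgeR fit without it, on 17391 genes, where 12.9% were called in either direction and 0 of the 3 members below the filter were called (0 at an unadjusted p below 0.05). On the same genes DESeq2 and limma-voom also called neither Slc4a4 nor Car2. Slc4a4 had 7.41, 4.80, 4.82, 5.94, 5.14 and 5.71 CPM in mild-hypo-OPC libraries 1 to 6 and 5.73, 8.98, 9.45, 3.68, 1.33 and 3.82 CPM in standard OPC libraries 1 to 6. Within standard OPCs, libraries 1 to 3 lay above libraries 4 to 6, which had 2 to 5 counts each, and the mild-hypo-OPC libraries fell between them or among them. The log2 fold change was 0.0056 over all libraries (SE 0.27, edgeR adjusted p = 0.991), -0.38 in replicates 1 to 3 (edgeR adjusted p = 0.586) and 1.01 in replicates 4 to 6 (edgeR adjusted p = 0.175). Of the astrocyte markers tested 2 of 7 were called higher, where 7.0% of all genes were, and their log2 fold changes ran from -0.27 (Slc1a2) to 0.79 (Aqp4). Their part in the Slc4a4 level was not tested.

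The log2 ratio of Slc4a4 to Slc4a2 counts was -1.81, -2.69, -2.60, -2.32, -2.52 and -2.38 in mild-hypo-OPC libraries 1 to 6 and -1.96, -1.38, -1.17, -0.92, -4.15 and -2.21 in standard OPC libraries 1 to 6. The difference of -0.42 was smaller than the spread among standard OPC libraries (SD 1.18) and did not pass the test (p = 0.452 in a two-sided exact permutation test, 0.452 adjusted over 3 ratios). Standard OPC replicate 5, with 2 Slc4a4 counts, had the lowest ratio, and leaving it out gave -0.86 (adjusted p = 0.0227, exact permutation test). Replicate 4 of the same group, with 8 Slc4a2 counts, had the highest ratio, and leaving it out gave -0.21 (adjusted p = 0.736, exact permutation test). Of the 12 tests that left out 1 library, 1 passed.

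Car2 had 3.44, 3.91, 4.17, 3.89, 4.31 and 5.16 CPM in mild-hypo-OPC libraries 1 to 6, from 19 to 33 counts. The standard OPC libraries had 5.35, 3.70, 6.12, 2.76, 7.997 and 6.87 CPM from 3 to 14 counts. Mild-hypo-OPC libraries all lay below the standard OPC median of 5.74 CPM, and the ranges overlapped. The log2 fold change without the filter was -0.38 (SE 0.26, edgeR adjusted p = 0.376), so no difference could be detected at this depth. Scaling by library size alone gave 0.0042.

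Around these members, 18 of 65 other genes of lactate and proton handling passed the filter, 17 of the 65 had no count in any library, and 30 had counts but stayed below the filter. Of the 18 tested, 0 were called higher, 3 lower and 15 neither, with 4 at an unadjusted p below 0.05 (edgeR). Limma-voom and DESeq2 each called 3 as well. Their median log2 fold change was 0.01, and 3 of 18 lower calls can be set beside the 17.0% of all genes tested that were called lower. The 3 were Mpc1, Mpc2 and Car8.

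Mpc1 and Mpc2 encode the 2 subunits of the mitochondrial pyruvate carrier, through which pyruvate made from lactate or glucose enters the mitochondrion. Mpc1 fell from 166 ± 44.1 to 91.2 ± 10.9 CPM, a log2 fold change of -0.85 (SE 0.15, edgeR adjusted p = 0.000434). Mpc2 fell from 65.3 ± 20.1 to 27.4 ± 4.35 CPM, a log2 fold change of -1.22 (SE 0.17, edgeR adjusted p = 0.000175). For Mpc2 the 6 mild-hypo-OPC libraries (21.4 to 33.9 CPM) all lay below the 6 standard OPC libraries (35.4 to 84.0 CPM), whereas for Mpc1 the highest mild-hypo-OPC library (103.2 CPM) just exceeded the lowest standard OPC library (102.9 CPM). In replicates 1 to 3 Mpc1 was not called (-0.59, edgeR adjusted p = 0.0763), and with the log2 total as covariate Mpc1 was at 0.0058 and Mpc2 at -0.31 (edgeR adjusted p = 0.998 and 0.890). At equal depth after thinning both Mpc1 and Mpc2 were called (-0.84 and -1.33, edgeR adjusted p = 0.000166 and 9.65e-05).

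Among 15 other carbonic anhydrase genes 3 were tested, and Car8 alone was called. Car8 encodes a member of the family that lacks catalytic activity, and it fell from 28.7 ± 7.09 to 19.7 ± 1.502 CPM, a log2 fold change of -0.52 (SE 0.14, edgeR adjusted p = 0.0109). Its call was lost with library size only (-0.09, edgeR adjusted p = 0.600), in replicates 1 to 3 (-0.45, edgeR adjusted p = 0.210) and with the log2 total as covariate (-0.31, edgeR adjusted p = 0.882). At equal depth after thinning Car8 was called (-0.63, edgeR adjusted p = 0.0237). Car11 and Car14, the other two tested, had log2 fold changes of -0.31 and -0.04. The hypoxia-inducible Car9 had 3 counts in all mild-hypo-OPC libraries together and 2 in all standard OPC libraries together, so that no fold is given. Car12, another cell-surface enzyme, had 30 and 3 counts in all, and in the unfiltered fit it stayed uncalled (1.37, SE 0.75, edgeR adjusted p = 0.264).

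Of the 5 sodium-proton exchangers and partners tested, 0 were called by edgeR, limma-voom or DESeq2, and 1 had an unadjusted p below 0.05. Of 14 other monocarboxylate transporter genes, 2 were tested and 0 were called by edgeR, limma-voom or DESeq2 (0 at an unadjusted p below 0.05). Slc16a7, which encodes the high-affinity transporter MCT2, had only 47 counts in the deeper mild-hypo-OPC libraries and 8 in the standard OPC libraries. In the unfiltered fit it stayed uncalled (0.67, SE 0.59, edgeR adjusted p = 0.517). Of the other bicarbonate transporters 1 (Slc4a7) was tested, with a log2 fold change of -0.01. Of the proton and lactate sensors 2 were tested, Asic1 (0.14) and Asic2 (-0.08), and 0 of these 3 genes were called by edgeR, limma-voom or DESeq2 or had an unadjusted p below 0.05. The lactate receptor gene Hcar1 had no counts.

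**Figure D4:**
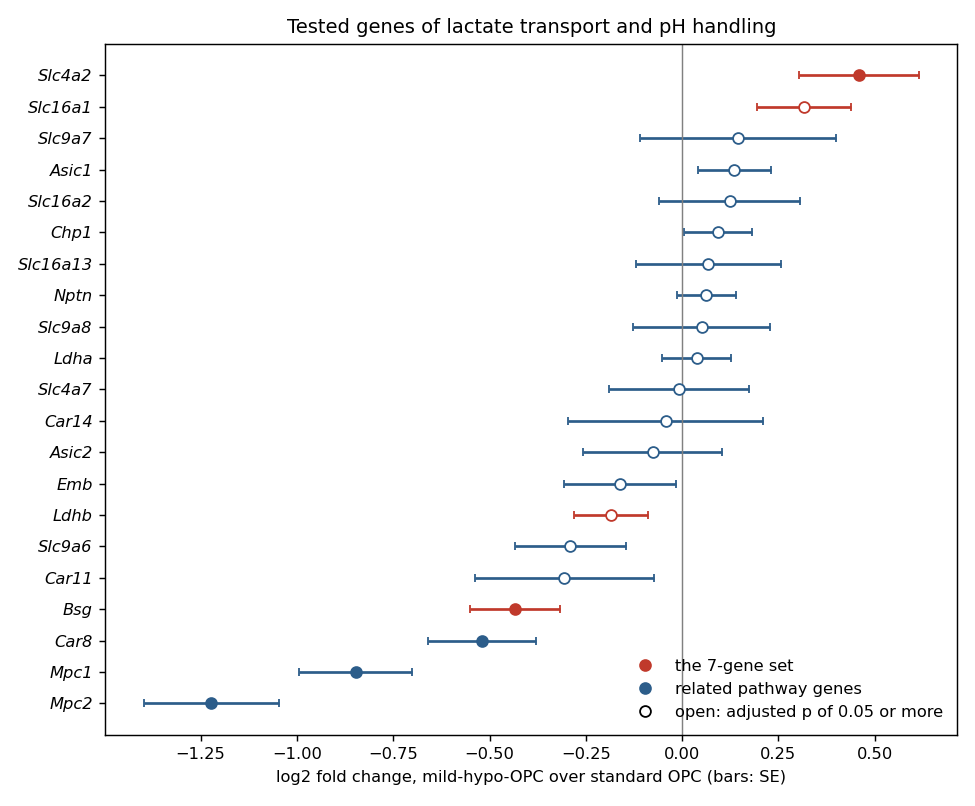
Log2 fold change (points) with SE (bars) of the 4 tested members (red) and the tested related genes (blue, 1 not shown), with open points where the adjusted p from edgeR was 0.05 or more. Mpc2 (-1.22), Mpc1 (-0.85), Car8 (-0.52) and Bsg (-0.43) were called lower and Slc4a2 (0.46) higher.

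The tested members differed in the genes whose log2 CPM followed them most closely over the 12 libraries, among genes with a mean of at least 20 CPM. Bsg was followed by Psmb5 and Psmd13, which encode proteasome subunits (Pearson r = 0.99 for each, with log2 fold changes of -0.66 and -0.34). Slc16a1 was followed by Sbno2 (r = 0.95) and P3h1 (r = 0.92), Ldhb by Rab34 (r = 0.92) and Sap18-ps1 (r = 0.91), and Slc4a2 by Arl5a (r = 0.94) and Rffl (r = 0.92). The points of each correlation share the libraries, their depth and their scaling, and the values are given as a description without a test.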

How the data were processed

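Bulk RNA-seq was available for 6 mild-hypo-OPC and 6 standard OPC libraries. The authors trimmed reads with Trimmomatic 0.36, aligned them to mRatBN7.2 with STAR 2.7.9a and used RSEM 1.3.3 for quantification, and the deposited values are raw counts, all whole numbers, for each Ensembl gene. How RSEM estimates became whole numbers is not given in the sources used here.

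The filter required more than 10 CPM in 1 or more libraries, after the study's methods. Genes passing it were tested in edgeR 4.0.16 (R 4.3.3) with TMM factors and no covariate, and p-values were Benjamini-Hochberg adjusted over them. Standard errors are those implied by the quasi-likelihood F statistic. Count ratios were compared by exact permutation of the 924 assignments of libraries (smallest p 0.00216), and for the replicate block by sign flips of the same-numbered pairs. Alternatives were limma-voom 3.58.1, DESeq2 1.42.0, other scalings and filters, thinning to the smallest total, a total-count covariate, removal of the trend on gene span (RefSeq, GRCr8, matched for 95.6% of genes), subsets of replicates and leaving out each library. Thinning was done in a single random draw and not repeated. The main edgeR fit and the limma-voom and DESeq2 fits were tested on simulated counts with known changes, and the other alternatives were not. In edgeR 12 of the 202 calls on simulated counts were false. The alternatives for Mpc1, Mpc2 and Car8 and the Slc16a1 to Bsg ratio were chosen after seeing the data. The gene set and all lists were chosen with earlier results of these data known. Named genes were the members, the called genes of the lists, Ldha, Slc16a7, Car9 and Car12, and the 2 closest genes by correlation per tested member. The other genes named (Emb, Nptn, Car11, Car14, Slc4a7, Asic1, Asic2, Hcar1, Aqp4, Slc1a2, Gpr17, Tubb3 and Tyrobp) were named after their values were seen. The values of 1 further gene are not reported here.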

Additional observations from a re-analysis of the deposited data

Results flagged for a closer look

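Over the 22 sets of 6 libraries examined (each of the 7 genes and 4 ratios in each condition), 4 single libraries stood apart from the rest of their set by Dixon's criterion, which chance meets in about 1 of 20 sets. Mild-hypo-OPC replicate 1, the most deeply sequenced library, was lowest for Slc4a2 with 26.1 CPM, against 29.5 CPM in the next library. Mild-hypo-OPC replicate 5 had the highest Ldhb to Ldha log2 ratio of its group, -1.11 against -1.32 in the next. For Slc16a3, mild-hypo-OPC replicate 3 (0.642 CPM, 4 counts) and standard OPC replicate 2 (0.528 CPM, 1 count) were above the rest, values that rest on very few reads. With the other standard OPC libraries at 0, any count in replicate 2 would have met the criterion, so the chance rate does not apply there.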

How the results depend on the processing

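The directions of Slc16a1 and Slc4a2 were the same in all 24 alternatives, and that of Bsg in 22 of 24. The number of members called higher (1) became 2 with DESeq2, upper-quartile scaling and library size only (795, 1136 and 5515 genes called higher in all), and 0 in replicates 1 to 3, in replicates 4 to 6 (1 at an unadjusted p below 0.05 in edgeR in each, with 53 and 569 genes called higher) and with the log2 total as covariate (0 at an unadjusted p, and 0 of all 8938 genes called higher). Leaving out single libraries gave 0 to 2. The number called lower (1) became 0 with library size only, in replicates 1 to 3 and with the covariate (0 at an unadjusted p in each, edgeR, with 405, 343 and 43 genes called lower in all), and stayed 1 when any single library was left out. Thinning to equal depth left both numbers at 1 (412 genes called higher and 1197 lower in all). Directions turned with library size only for Bsg (0.0052), Ldhb (0.26) and Car2 (0.0042), and with the covariate for Bsg (0.21), Ldhb (0.25) and Mpc1 (0.0058). Slc4a4, near 0, turned with DESeq2 (-0.0112), filterByExpr (-0.0329), replicates 1 to 3 (-0.38), the covariate (-0.90) and thinning (-0.24), and ran from -0.18 to 0.21 without single libraries. Ratio differences with 2 added per count were 1.57 for Slc16a1 over Slc16a3, -0.23 for Ldhb over Ldha and -0.59 for Slc4a4 over Slc4a2. The 1.57 (adjusted p = 0.00649, exact permutation test) is given without a reading, since with Slc16a3 near 0 this ratio grows with depth. Without single libraries, and with 0.5 added, the differences were 0.49 to 1.07, -0.27 to -0.18 and -0.86 to -0.21, respectively. The Slc4a4 over Slc4a2 difference was 0.0227 in replicates 4 to 6. The causes were not tested. Same-numbered libraries did not deviate together (r from -0.28 to 0.30, 1 of 6 closest to its own number). With the replicate block the log2 fold changes were -0.43 for Bsg and 0.48 for Slc4a2, with 572 genes called higher and 1471 lower. Slc16a1 stayed uncalled (0.32, edgeR adjusted p = 0.101). For Ldhb over Ldha an exact sign-flip test on the same-numbered pairs gave p = 0.0625 (0.188 adjusted over 3 ratios). Depth limits Slc16a3, Slc4a4 and Car2.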
